A study of Rattus norvegicus with 10 samples.

Results

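The genes described here are 10 rat genes that govern whether a cell lives or dies: *Bcl2a1*, *Mcl1*, *Bcl2l1* and *Bcl2*, which hold off apoptosis, *Bax*, *Bcl2l11*, *Bid* and *Pmaip1*, which promote it, and the survival kinases *Pim1* and *Pim3*. They were listed by name as Bcl-2 family and Pim kinase genes and not by a cutoff on their values, but earlier results of these data were known. All 10 were among the 9003 genes of the expression table. *Pim1* and *Pim3* were lower in macrophages from nephritic rats given stem cells than in macrophages of healthy rats, at 48.3% and 69.5% of the control mean in one sorted fraction and 48.0% and 68.1% in the other. *Bcl2a1* was lower by less, and none of the 10 genes was higher in a nephritis group than in control at an adjusted p under 0.1.

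Bcl-2 family proteins meet on the outer membrane of the mitochondrion. Bax and its partner Bak make pores in that membrane, the BH3-only proteins such as Bim, Bid and Noxa are set free or made in response to stress and push toward pore formation, and Bcl-2, Bcl-xL, Mcl-1 and A1 bind and restrain both. The Pim kinases are serine/threonine kinases that need no activating phosphorylation, so that their amount sets their activity. They are induced by cytokines through STAT and NF-kappaB signaling, phosphorylate the BH3-only protein Bad, and raise cap-dependent translation. In myeloid cells, Mcl-1 and A1 are short-lived proteins whose transcripts follow growth factor and inflammatory signals.

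RNA-seq was performed on splenic M2 macrophages sorted by flow cytometry from WKY /Ncrj rats. The control group came from rats in the physiological state (n = 2 libraries) and the GN group from rats with glomerulonephritis and no cell therapy (n = 2), induced by the mouse monoclonal antibody TF78 against the glomerular basement membrane. The other groups came from rats with the same nephritis that also received human adipose-derived mesenchymal stem cells (ASCs) labeled with the membrane dye DiD. DiD-positive macrophages, which carried ASC-derived extracellular vesicles, formed the EV+ group (EVposi in the table, n = 3), and DiD-negative macrophages formed the EV- group (EVnega, n = 3). Rats of the nephritis model were young females, by the study's methods, which do not give the age of the rats behind each library, and whether a library held 1 rat or several is not stated. There was no group given ASCs without nephritis. EV+ and EV- therefore differ from control in both nephritis and cell therapy, and the 3 comparisons against control share the same 2 control libraries. Both fractions were sorted from spleens of treated rats, and whether the same rats gave both is not stated. The EV+ and EV- differences are therefore not taken as independent repeats.

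Values are TMM-normalized CPM, that is, read counts scaled to a common library size, which the authors deposited. They could be turned back into whole reads, with 19270515 to 26617093 reads per library, and 3 reads, taken as the detection floor, correspond to 0.113 to 0.153 CPM. The macrophage genes *Csf1r*, *Cd68*, *Adgre1*, *Itgam* and *Cd14* were present in all libraries, whereas *Cd163* and *Mrc1*, which often mark M2 macrophages, stood at 0 in at least 1 library and at no more than 1.81 CPM in any. The summed level of the 7 macrophage markers in the table was 8699 to 9190 CPM in control, 10220 to 10292 in GN, 10524 to 11693 in EV+ and 10050 to 10723 in EV-. NK and T cell markers summed to 222 to 351 CPM in the control, GN and EV+ libraries and to 347 to 885 CPM in the EV- libraries, with the highest sum in EV- replicate 1. Neutrophil markers summed to 550 to 556 CPM in control, 611 to 690 in GN, 701 to 720 in EV+ and 656 to 745 in EV-. Erythroid markers summed to 1.19 to 1.61, 6.44 to 7.26, 3.28 to 4.80 and 3.72 to 6.30 CPM in the same order. B cell and dendritic cell markers summed to 320 to 464 and 25.7 to 37.4 CPM over all libraries. In such bulk samples, fewer cells of a type and less RNA per cell cannot be told apart.

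RefSeq promoter windows of the GRCr8 assembly were found for 9 of the 10 genes, and *Bax* had none. The expression table was made on rn6, an older assembly, so the coordinates below belong to the sequences alone. The 250 bases before the annotated start are shown for the 4 genes that were called lower in EV+ than in control. They lie at chr20:7556246-7556495 for *Pim1*, chr7:121832795-121833044 for *Pim3*, chr8:98596556-98596805 for *Bcl2a1* and chr2:185907918-185908167 for *Mcl1*, all on the plus strand. Capitals mark a match to the AP-1 search pattern in *Bcl2a1* and to the kappaB pattern in *Mcl1*.
Pim1: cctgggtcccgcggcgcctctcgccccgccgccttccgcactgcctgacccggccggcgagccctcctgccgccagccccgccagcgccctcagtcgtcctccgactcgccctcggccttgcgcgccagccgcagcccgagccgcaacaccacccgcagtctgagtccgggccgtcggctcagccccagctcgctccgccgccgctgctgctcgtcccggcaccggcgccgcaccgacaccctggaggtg
Pim3: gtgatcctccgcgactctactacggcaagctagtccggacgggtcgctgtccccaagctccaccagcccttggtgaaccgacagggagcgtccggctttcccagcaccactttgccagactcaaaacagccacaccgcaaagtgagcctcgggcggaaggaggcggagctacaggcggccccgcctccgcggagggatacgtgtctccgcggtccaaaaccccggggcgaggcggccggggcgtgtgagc
Bcl2a1: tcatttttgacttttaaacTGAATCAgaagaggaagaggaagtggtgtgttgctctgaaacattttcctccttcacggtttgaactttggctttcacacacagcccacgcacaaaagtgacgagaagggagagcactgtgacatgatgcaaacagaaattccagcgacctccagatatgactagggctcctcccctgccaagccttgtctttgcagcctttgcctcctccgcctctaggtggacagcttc
Mcl1: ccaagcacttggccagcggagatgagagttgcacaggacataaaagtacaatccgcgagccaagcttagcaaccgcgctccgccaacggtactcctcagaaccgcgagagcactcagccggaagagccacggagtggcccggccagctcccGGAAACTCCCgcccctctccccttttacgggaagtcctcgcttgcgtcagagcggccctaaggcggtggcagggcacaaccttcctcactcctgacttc
The motifs were searched on both strands in windows of 300 bases, from 250 before to 50 after each start. TGANTCA, a loose pattern for sites of AP-1 proteins that allows any base at N, was present in 7.33% of all 33469 windows. Of the 10 genes, *Bcl2a1* alone held it, as TGAATCA, 231 bases before the start. The kappaB motif, bound by NF-kappaB, was present in 4.18% of windows and occurred in *Mcl1*, 99 bases before the start, and in *Pmaip1*, 41 bases before it. TTCNNNGAA, the STAT element, was present in 8.87% of windows and among these genes only in 2 overlapping windows of *Bcl2l1*, and TGACGTCA, the cyclic AMP response element, was present in 1.83% of windows and in none of these genes. *Pim1* and *Pim3* held none of the 4 motifs in these windows. An ATG follows the annotated *Pim1* start within a few bases, so its window may hold untranslated leader. Sequence further upstream was not searched, and where transcription starts in these cells was not measured. A match is a run of letters and was not measured as a binding site.

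Group differences were tested with limma on log2(CPM + 1) across all 9003 genes, with all 10 libraries in 1 fit, and genes were called at a Benjamini-Hochberg adjusted p under 0.1. Fold changes below are on this scale, which understates the change of genes of a few CPM. The test of any difference among the 4 groups called 3 of the 10 genes, *Pim1* (adjusted p = 0.000979), *Pim3* (0.0817) and *Bcl2a1* (0.0821), where 2.57% of all genes were called. *Pmaip1* (0.192), *Mcl1* (0.193) and *Bcl2* (0.506) did not pass, and the other 4 genes had adjusted p from 0.889 to 0.967. The study's edgeR test of the 4 groups, also at a threshold of 0.1, called more genes than limma did here. In these same libraries, the study placed *Bcl2a1* in a cluster that it described as lowered in nephritis and lower still in EV+. The direction of *Bcl2a1*, *Pim1* or any other of the 10 genes here is therefore not independent evidence.

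**Figure D1:**
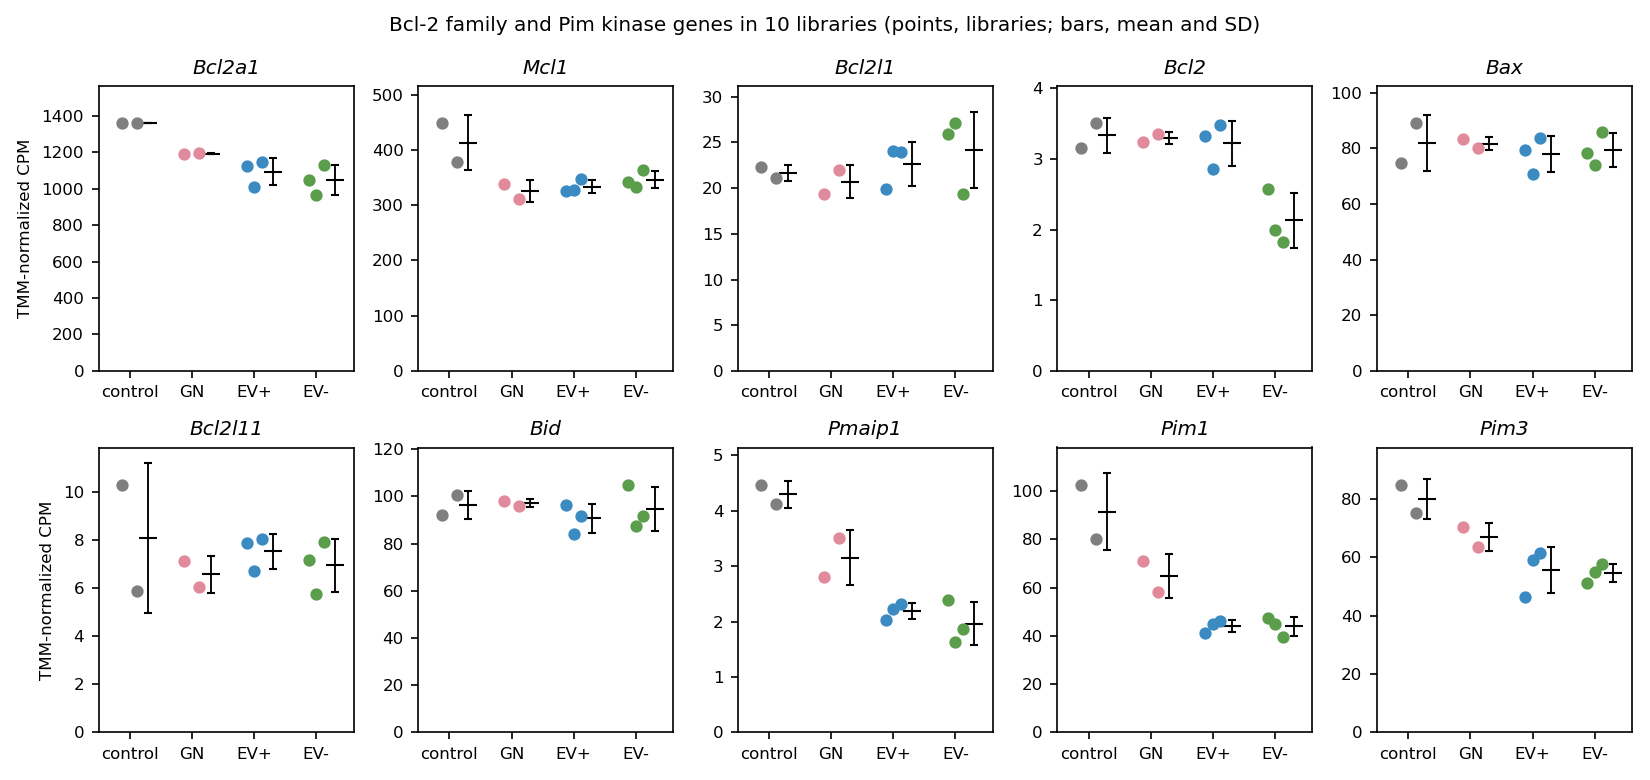
TMM-normalized CPM (y axis, from 0, with its own scale in each panel) of the 10 Bcl-2 family and Pim kinase genes in control, GN, EV+ and EV- libraries. Points are libraries and bars are group means with SD. *Pim1*, *Pim3*, *Bcl2a1* and *Pmaip1* are highest in control, lower in GN and lowest in the EV libraries without overlap, whereas the groups of *Bax* and *Bid* overlap.

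*Pim1*, which encodes the founding kinase of the Pim family, had the lowest adjusted p of the 10 genes in EV+ and in EV- against control. Its level was 103 and 80.3 CPM in the control libraries and 71.2 and 58.3 CPM in GN. It was 41.3, 45.0 and 46.1 CPM in EV+ and 47.4, 45.1 and 39.4 CPM in EV-. Every control library was above every GN library, and every GN library was above all 6 EV libraries, while EV+ and EV- overlapped. The control mean was 91.5 ± 15.9 CPM (SD, n = 2) and the GN mean 64.8 ± 9.09 CPM (n = 2). The means of the EV groups, 44.2 ± 2.51 CPM for EV+ and 43.9 ± 4.10 CPM for EV- (n = 3 each), differed by less than their SDs.

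Against control, *Pim1* had a log2 fold change of -1.03 (SE 0.129, adjusted p = 0.000534, limma) in EV+ and -1.03 (SE 0.129, adjusted p = 0.000538, limma) in EV-. *Pim1* was called in both comparisons with each of the 10 libraries left out in turn, at -1.20 to -0.85 for EV+ and -1.21 to -0.86 for EV-. In GN, *Pim1* had a log2 fold change of -0.49 against control (SE 0.142) with an adjusted p of 0.156, which did not pass. Against GN, the differences of *Pim1* were -0.54 in EV+ (adjusted p = 0.288) and -0.55 in EV- (adjusted p = 0.160). These comparisons passed by DESeq2 on recovered reads (adjusted p = 0.0496 for GN against control, 0.0299 for EV+ and 0.0162 for EV- against GN). All 3 also passed in limma when same-numbered EV+ and EV- libraries were treated as pairs (adjusted p = 0.0809, 0.0731 and 0.0549). That pairing was taken from these data and gave control and GN no pairs. For GN against control, the paired fit changed only the shared estimate of the spread. EV+ or EV- against GN or control is not a comparison within pairs either. In all of these the fit left out spread between same-numbered pairs. Its p-values, here and for the genes below, therefore do not measure the full spread between libraries.

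*Pim3*, which encodes a closely related Pim kinase, followed the same order of groups with a smaller change. It stood at 84.8 and 75.2 CPM in control and at 70.4 and 63.4 CPM in GN. The EV+ libraries had 46.4, 58.9 and 61.4 CPM and the EV- libraries 51.2, 54.7 and 57.5 CPM. No EV library reached the lower GN library, and no GN library reached the lower control library. The log2 fold change against control was -0.53 (SE 0.123, adjusted p = 0.0404, limma) in EV+ and -0.54 (SE 0.123, adjusted p = 0.0415, limma) in EV-, and -0.25 in GN (adjusted p = 0.562). The *Pim3* calls depended on the controls: without control replicate 1 the adjusted p was 0.256 for EV+ and 0.268 for EV-, and without control replicate 2 it was 0.135 and 0.133. The EV- call was also lost without EV- replicate 1 (adjusted p = 0.130). Both *Pim3* calls were lost when limma's intensity trend was left out (0.128 and 0.131).

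*Bcl2a1* encodes A1, a Bcl-2 relative of hematopoietic cells and an NF-kappaB target. It stood at 1358 and 1359 CPM in control, 1190.4 and 1193 in GN, 1126, 1008 and 1143 in EV+, and 1046, 966 and 1130.5 in EV-. The control libraries differed by less than 1 CPM, whereas the EV+ and EV- groups had SDs of 73.6 and 82.4 CPM, and the levels of control, GN and the EV libraries did not overlap. The means were 87.7% of control in GN, 80.4% in EV+ and 77.1% in EV-. The log2 fold change against control was -0.32 (SE 0.0796, adjusted p = 0.0605, limma) in EV+ and -0.38 (SE 0.0796, adjusted p = 0.0305, limma) in EV-. The GN difference of *Bcl2a1*, -0.19, did not pass (adjusted p = 0.477), nor did EV+ or EV- against GN (-0.13 and -0.19, adjusted p = 0.833 and 0.567). With EV+ and EV- paired, GN against control and EV- against GN passed (adjusted p = 0.0845 and 0.0940). Neither is a comparison within pairs.

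The *Bcl2a1* call in EV- was lost without either control library (adjusted p = 0.167 without replicate 1 and 0.199 without replicate 2) and in limma without the intensity trend (0.155). The *Bcl2a1* call in EV+ was also lost without these libraries (0.215 and 0.284) or the trend (0.204). In addition, it moved to 0.1001 without either GN library, to 0.110 without EV+ replicate 2 and to 0.107 without EV+ replicate 3.

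*Mcl1*, whose product is a labile guardian that binds Bim, Noxa and Bak, had its highest level in control and its lowest group mean in GN. It was at 448 and 378 CPM in control, 339 and 311 in GN, 326, 327 and 347 in EV+, and 343, 333 and 363 in EV-. Both control libraries were above all 8 nephritis libraries, and the 3 nephritis groups overlapped each other. The means of *Mcl1* were 78.6%, 80.6% and 83.7% of control in GN, EV+ and EV-. The log2 fold change against control was -0.34 in GN (SE 0.0917, adjusted p = 0.116), -0.31 in EV+ (SE 0.0837, adjusted p = 0.0826) and -0.25 in EV- (adjusted p = 0.187), so that only EV+ passed. With EV+ and EV- paired, *Mcl1* was also called in GN (adjusted p = 0.0281) and in EV- (0.0622).

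Control replicate 1, the higher of the 2 for *Mcl1*, carried much of this difference. Without it the log2 fold change of *Mcl1* in EV+ was -0.18 (adjusted p = 0.434), that in EV- -0.13 and that in GN -0.22. The *Mcl1* call in EV+ was also lost without any 1 of the 2 GN libraries, the 3 EV+ libraries or EV- replicate 1, at adjusted p from 0.113 to 0.148, and in limma without the intensity trend (0.234). In GN, *Mcl1* passed without control replicate 2 (-0.46, adjusted p = 0.0835) or without EV+ replicate 2 (0.0927).

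The other restraining members were called in no comparison. *Bcl2l1*, which encodes Bcl-xL, ranged from 19.4 to 27.1 CPM over the 10 libraries with group means of 21.7 ± 0.868, 20.7 ± 1.80, 22.7 ± 2.41 and 24.1 ± 4.14 CPM in control, GN, EV+ and EV-. All 4 groups of *Bcl2l1* overlapped. Its 95% interval for the log2 fold change against control ran from -0.28 to 0.39 in EV+ and from -0.20 to 0.47 in EV-, which leaves room for a change of the size seen for *Bcl2a1* in the upward direction only.

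*Bcl2*, the founder of the family, was scarce, with 39 to 89 reads per library. Its level was 3.16 and 3.51 CPM in control, 3.23 and 3.35 in GN, 3.32, 2.86 and 3.48 in EV+, and 2.58, 1.99 and 1.83 in EV-. The EV- libraries were below every other library, at a mean of 63.9% of control. The EV+ over EV- difference of *Bcl2* was 0.44 on the log2 scale (SE 0.192, 95% interval 0.02 to 0.85). EV+ was higher in 3 of 3 same-numbered pairs, which the lack of overlap fixes in advance. The difference did not pass limma (unadjusted p = 0.0398, adjusted p = 0.9997), and with the libraries paired the interval was -0.0022 to 0.87 (adjusted p = 0.745). The two-sided exact permutation test of 3 against 3 libraries gave p = 0.1, the smallest that this design allows, so that it could not have passed. The highest EV- library for *Bcl2* was EV- replicate 1, the library with the most NK and T cell marker RNA. The 95% Poisson intervals, which cover counting error only, did not overlap for replicate 3 (1.34 to 2.43 CPM in EV- and 2.75 to 4.34 in EV+). They overlapped for replicate 1 (1.93 to 3.37 and 2.65 to 4.11) and for replicate 2 (1.41 to 2.72 and 2.22 to 3.63).

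**Figure D2:**
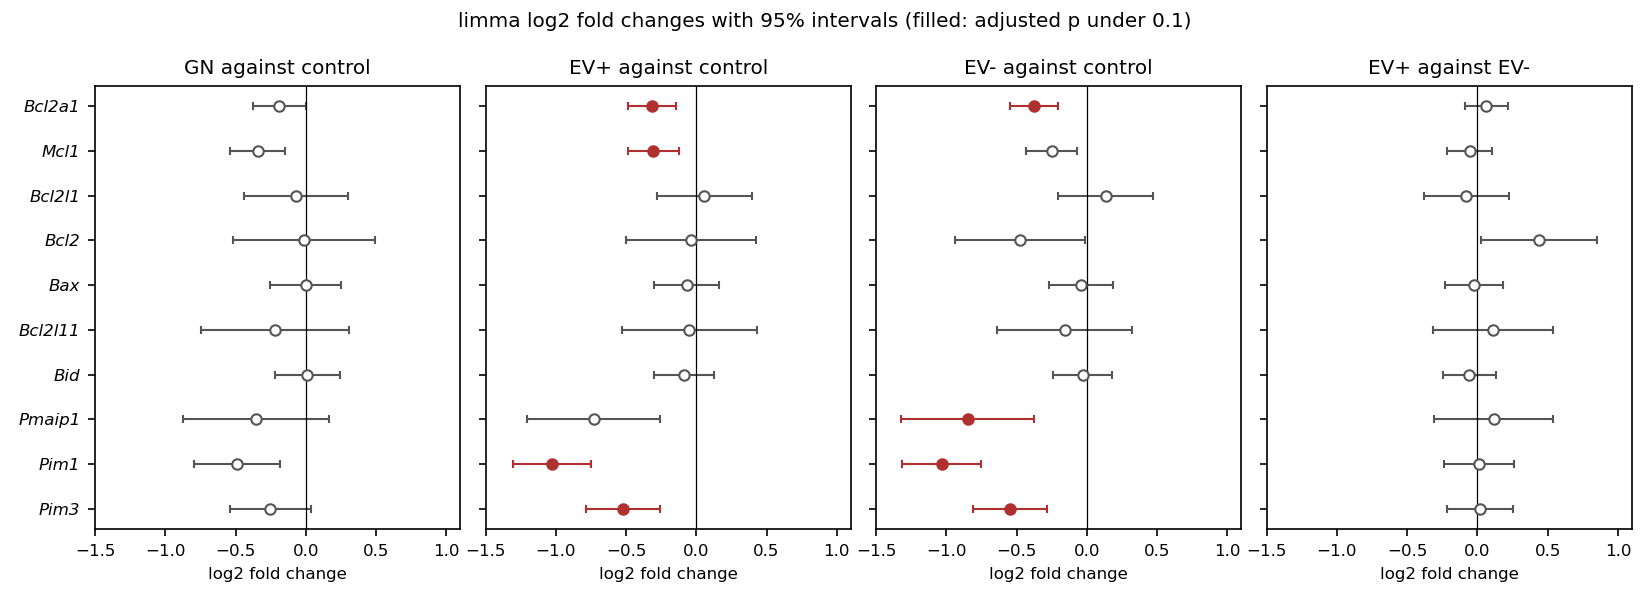
limma log2 fold changes of log2(CPM + 1) (x axis) for the 10 genes, with 95% intervals, for GN, EV+ and EV- against control and for EV+ against EV-. Filled red points have an adjusted p under 0.1. *Pim1* sits at -1.03 in both EV groups, and the EV+ against EV- panel holds no filled point.

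Among the genes that promote death, *Pmaip1* was the one called in any comparison. *Pmaip1* encodes Noxa, a BH3-only protein that binds Mcl-1 and A1. It was scarce, at 32 to 116 reads per library. It stood at 4.47 and 4.12 CPM in control, 2.80 and 3.50 in GN, 2.03, 2.23 and 2.32 in EV+, and 2.38, 1.63 and 1.87 in EV-. Control, GN and the EV libraries did not overlap, and the means were 73.4%, 51.1% and 45.6% of control in GN, EV+ and EV-.

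The log2 fold change of *Pmaip1* against control was -0.85 in EV- (SE 0.220, adjusted p = 0.0772, limma), which passed. It was -0.73 in EV+ (SE 0.220, adjusted p = 0.121, limma), which did not. The difference between EV+ and EV- was 0.12 with a 95% interval from -0.31 to 0.54, so the unequal calls do not show unequal levels. The EV- call of *Pmaip1* was not made by edgeR's quasi-likelihood test (adjusted p = 0.127), with a pseudocount of 0.1 (0.102) or with a replicate block over all libraries (0.123). It was lost without either control library (0.306 and 0.308), either GN library (0.107 and 0.108), EV+ replicate 3 (0.114), EV- replicate 2 (0.194) or EV- replicate 3 (0.161). Conversely, *Pmaip1* was called in EV+ with same-numbered EV+ and EV- libraries paired (0.0912) and in limma without the intensity trend (0.0389).

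*Bax*, the pore former, and *Bid*, the BH3-only protein that links death receptors to mitochondria, were called in no comparison and had overlapping groups. *Bax* had group means of 81.9 ± 10.01, 81.6 ± 2.31, 77.9 ± 6.54 and 79.3 ± 6.03 CPM in control, GN, EV+ and EV-, and *Bid* had 96.5 ± 5.95, 97.2 ± 1.59, 90.7 ± 6.18 and 94.6 ± 9.22 CPM. Over all libraries *Bax* stayed between 70.7 and 89.0 CPM and *Bid* between 84.0 and 105 CPM. The 95% intervals of the log2 fold change against control were -0.25 to 0.25 in GN, -0.30 to 0.16 in EV+ and -0.27 to 0.19 in EV- for *Bax*. For *Bid* they were -0.22 to 0.24, -0.30 to 0.12 and -0.24 to 0.18. A change of the size measured for *Pim1* lies outside all 6 intervals.

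*Bcl2l11*, which encodes Bim, the BH3-only protein that rises on growth factor loss, varied most between the control libraries themselves, at 10.3 and 5.86 CPM. It was 7.10 and 6.03 CPM in GN, 7.85, 6.69 and 8.03 in EV+, and 7.14, 5.76 and 7.90 in EV-. All groups of *Bcl2l11* overlapped. Its 95% intervals were wide, at -0.53 to 0.43 for EV+ against control and -0.64 to 0.32 for EV- against control, and leaving out 1 library moved the EV+ difference between -0.41 and 0.31.

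Counted by comparison, GN against control called 0 of the 10 genes with limma and 0 with edgeR, and DESeq2 called *Mcl1* and *Pim1*, 2 in all. In this comparison limma called 1.75% of all genes and DESeq2 3.27%, and 3 of the 10 genes had an unadjusted p under 0.05 against 10.4% of all genes. The GN libraries lay below both control libraries for 5 of the 10 genes, which was the case for 22.0% of all genes. With EV+ and EV- libraries paired, 3 of the 10 genes were called in GN against control, *Bcl2a1*, *Mcl1* and *Pim1*, all lower, where that fit called 4.35% of all genes.

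Against control, EV+ called 4 of the 10 genes, *Pim1*, *Pim3*, *Bcl2a1* and *Mcl1*, and all 4 were lower, where 1.81% of all genes were called lower. EV- called 4 as well, *Pim1*, *Pim3*, *Bcl2a1* and *Pmaip1*, all lower, where 1.56% of all genes were called lower. The EV+ libraries lay below both control libraries for 5 of the 10 genes and the EV- libraries for 6, which was the case for 15.6% and 14.1% of all genes. The median log2 fold change of the 10 genes was -0.20 in EV+ and -0.31 in EV-, beside medians of -0.00013 and 0.0070 over all genes. The calls depended on single libraries: leaving out 1 library at a time left between 1 and 4 of the 10 genes called in each comparison, and without control replicate 1 *Pim1* was the gene called in both.

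Against GN, limma and edgeR called 0 of the 10 genes in EV+ and 0 in EV-, while DESeq2 called 1 in each, *Pim1*. The shares of all genes called by limma were 0.122% and 0.378%. The EV+ libraries lay below both GN libraries for 4 of the 10 genes and the EV- libraries for 5, beside 11.8% and 12.8% of all genes. At an unadjusted p under 0.05 there were 2 of the 10 genes in EV+ and 5 in EV-, against 7.13% and 7.85% of all genes. DESeq2 called 0.455% and 1.26% of all genes. With EV+ and EV- paired, limma called 1 of the 10 in EV+, *Pim1*, and 2 in EV-, *Pim1* and *Bcl2a1*, beside 1.26% and 1.91% of all genes in that fit.

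Between EV+ and EV-, which sets dye-carrying macrophages against the others from treated rats, 0 of the 10 genes were called by limma, edgeR or DESeq2 without pairing, where limma called 0.0222% of all genes, or by limma with pairing, where it called 0.378%. At an unadjusted p under 0.05 there was 1, *Bcl2*, against 4.57% of all genes, and *Bcl2* was also the gene whose EV+ libraries all lay above the EV- libraries, which held for 4.25% of all genes. With the libraries paired, the 95% intervals of the EV+ minus EV- log2 difference were -0.23 to 0.25 for *Pim1*, -0.17 to 0.21 for *Pim3*, -0.03 to 0.16 for *Bcl2a1* and -0.19 to 0.08 for *Mcl1*. Without pairing they were -0.24 to 0.26, -0.22 to 0.26, -0.09 to 0.21 and -0.22 to 0.11. For each of these 4 genes, a difference between the sorted fractions as large as its difference from control in EV+ lies outside both of its intervals. Within the 3 same-numbered pairs, EV+ was the higher in 3 for *Bcl2a1* and *Bcl2l11*, in 2 for *Pim3* and *Pmaip1*, in 1 for *Pim1*, *Bax*, *Bid* and *Bcl2l1* and in 0 for *Mcl1*.

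The order in which both control libraries lay above both GN libraries and those above all 6 EV libraries was held by 4 of the 10 genes, *Pim1*, *Pim3*, *Bcl2a1* and *Pmaip1*. It was held by 75 of all 9003 genes, or 0.833%, and the opposite order by 41 genes and none of the 10. The falling order was not particular to the 10 genes, since 12 of the 15 immediate early genes described below held it too. This order was looked for after the values had been seen, and its genes were not tested as a group.

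**Figure D3:**
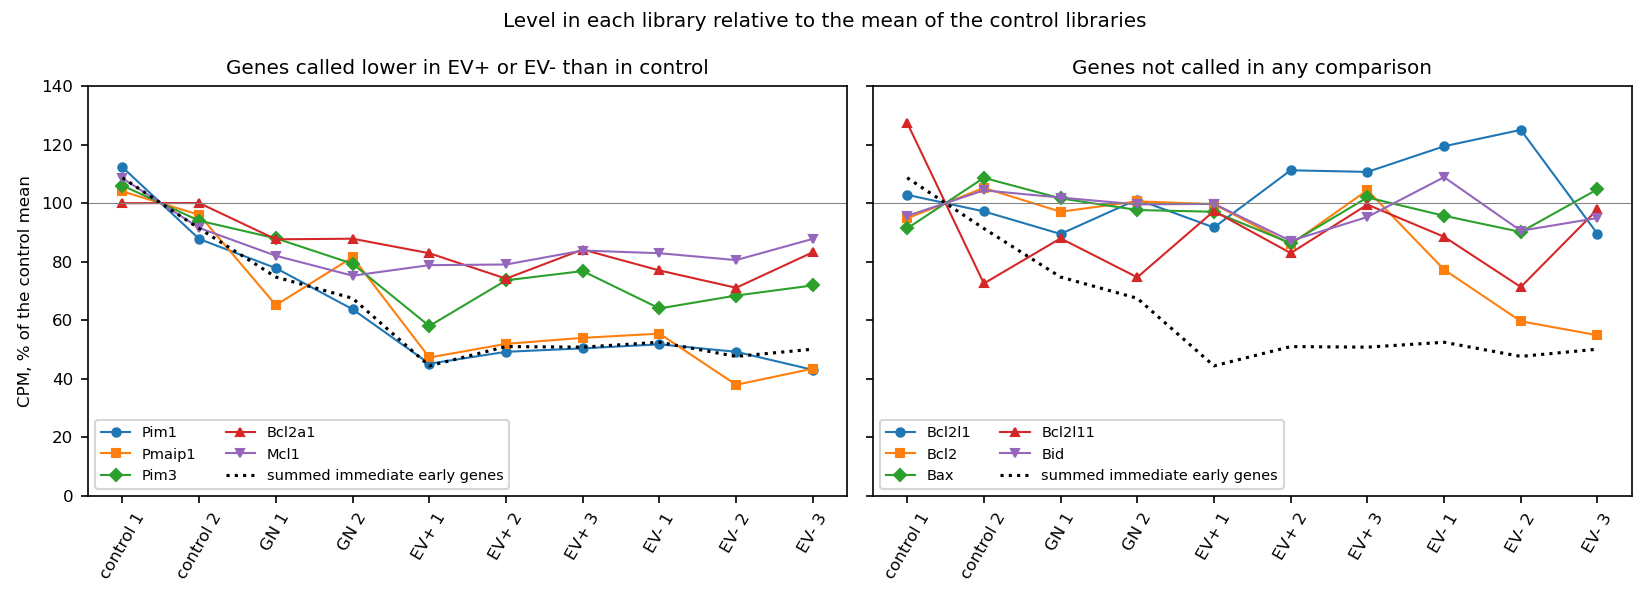
CPM of each gene in each library as a percentage of the mean of the 2 control libraries (y axis, from 0), for the 5 genes called lower in EV+ or EV- than in control (left) and the 5 genes not called (right). The dotted line is the summed CPM of 15 immediate early genes, which was between 44.4% and 52.5% of its control mean in the 6 EV libraries.

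Immediate early genes were also lower in the EV libraries. These are transcripts such as *Fos* and *Egr1* that rise within minutes of a stimulus, tissue dissociation included, and the spleens had been digested with warm collagenase before sorting. The 15 of 16 listed that were in the table summed to 22161 and 26360 CPM in control, 16375 and 18136 in GN, 10777 to 12376 in EV+ and 11561 to 12732 in EV-. Of these 15 genes, 13 were called lower in EV+ and 12 in EV- than in control. Control replicate 1 was the higher control library for this sum as it was for *Pim1*, *Pim3*, *Mcl1*, *Pmaip1*, *Bcl2l1* and *Bcl2l11*. Control replicate 2 was the higher for *Bcl2a1*, *Bcl2*, *Bax* and *Bid*. The part of these early genes in the differences of the 10 genes was not tested.

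The genes with the profiles most like *Pim1* over the 10 libraries, by Pearson's r of log2(CPM + 1) among 7170 genes of at least 5 CPM on average, were *Neurl3* (0.968), *Dusp1* (0.967) and *Zfp36* (0.967). For *Pim3* they were *Btg2* (0.968), *G0s2* (0.960) and *Stambpl1* (0.958), and for *Bcl2a1* *Pak2* (0.949), *LOC288913* (0.933) and *Ftl1* (0.932). *Dusp1*, *Zfp36* and *Btg2* belong to the immediate early list. The 10 points share 4 groups and differ mostly between them, so these values describe a common order of groups. The mean of *Dusp1*, for instance, was 7165 ± 859 CPM in control, 5047 ± 643 in GN, 3267 ± 367 in EV+ and 3263 ± 416 in EV-.

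Of 18 other Bcl-2 family and Pim genes, 13 were in the table, among them *Bak1*, *Bad*, *Bbc3* and *Pim2*. Of 15 genes of the mitochondrial death machinery, which carries the signal from cytochrome c to the executioner caspases, 14 were present, and of 13 caspase inhibitors and death receptor genes, 12. In each of the 7 tests limma and edgeR called 0 of these 39 genes, where limma called 3.63% of all genes in EV+ and 2.84% in EV- against control and less elsewhere, so that a count of 0 is near the background. At an unadjusted p under 0.05 there were 3 of the 39 in GN, 2 in EV+ and 2 in EV- against control, beside 10.4%, 15.0% and 13.1% of all genes. The medians of the log2 fold changes of the 39 genes against control were -0.013 in GN, 0.012 in EV+ and 0.0049 in EV-.

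DESeq2 called 2 of the 39 genes in these tests, which are named for that reason after their values were seen, and the paired fit called the same 2 genes. Of all 9003 genes, DESeq2 called 294 (3.27%) in GN against control, 474 in EV- against control and 543 among the 4 groups. The paired fit called more in each of these. With 1 of the 39 called by DESeq2 in each, these counts are not above the background. *Cflar*, which encodes the caspase-8 inhibitor c-FLIP, was at 68.2 ± 10.3 CPM in control, 51.0 ± 0.327 in GN, 60.9 ± 3.26 in EV+ and 61.3 ± 3.41 in EV-. DESeq2 called *Cflar* in GN against control, where limma gave a log2 fold change of -0.40 (adjusted p = 0.156). *Apaf1*, the scaffold of the apoptosome, was at 94.0 ± 9.71 CPM in control, 77.6 ± 2.92 in GN, 92.1 ± 8.38 in EV+ and 75.1 ± 3.06 in EV-. DESeq2 called *Apaf1* among the 4 groups and in EV- against control, where limma gave -0.32 (adjusted p = 0.159).

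**Figure D4:**
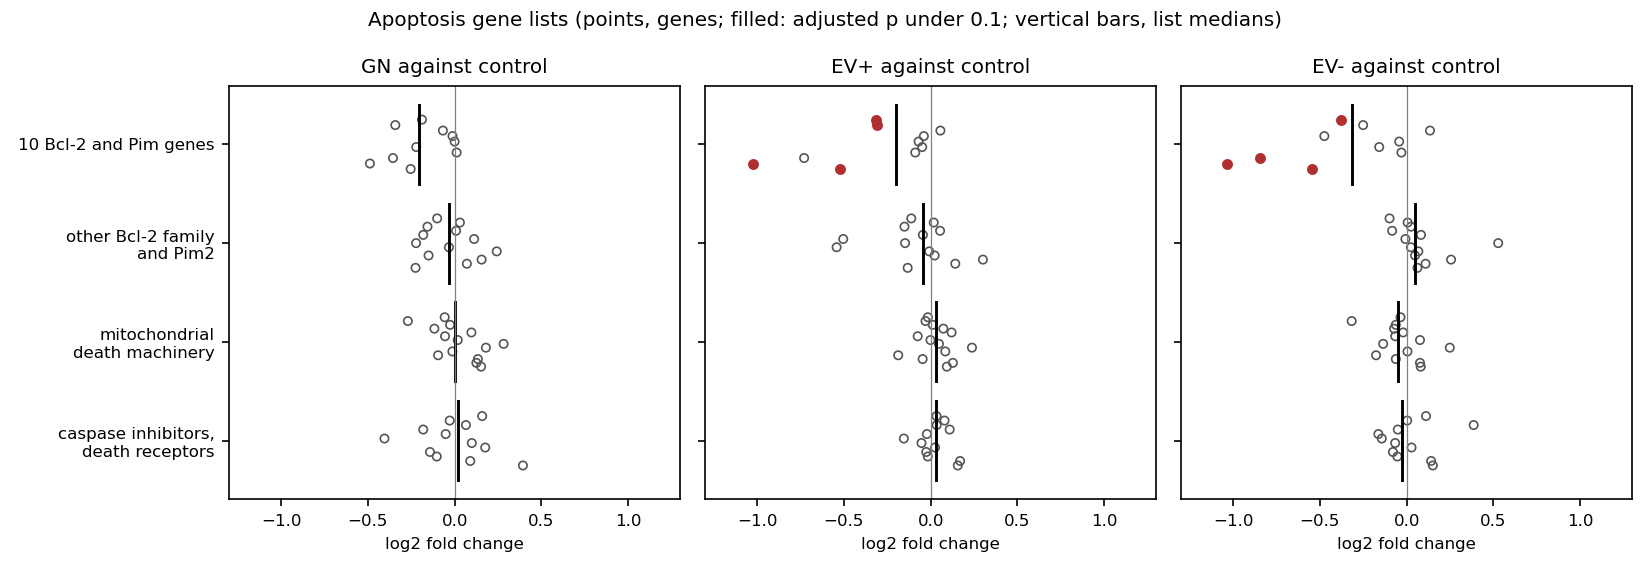
limma log2 fold changes (x axis) against control in GN, EV+ and EV- of the 10 Bcl-2 and Pim genes and of 3 further apoptosis lists of 13, 14 and 12 genes. Points are genes, filled red where the adjusted p is under 0.1, and vertical bars are medians; filled points occur in the top row only.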

How the data were processed

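Splenic M2 macrophages of 4 groups were sequenced in 10 libraries (SMART-Seq v4, Nextera XT, paired-end, Illumina NovaSeq). The authors aligned the reads to rn6 with STAR (version 2.5.3), counted them on RefSeq genes with HTSeq (version 0.6.0, intersection-strict), removed genes with a maximum CPM under 1 and applied TMM normalization in edgeR. The deposited values are thus a normalized signal, in CPM. They gave whole reads in 100% of cases within 0.1 read. The smallest row maximum was 1.01 CPM. Libraries were grouped by their labels, and p-values measure the spread between these libraries. The fits with a replicate block leave out the part of that spread shared by same-numbered libraries.

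limma (version 3.58.1, R 4.3.3) was run on log2(CPM + 1) with 4 group means, 6 residual degrees of freedom and an intensity trend. As alternatives, the recovered reads were tested with the edgeR quasi-likelihood test (version 4.0.16) and with DESeq2 (version 1.42.0). On simulated data with independent libraries, limma, edgeR and DESeq2 were tried without a replicate block. The fits with a replicate block were not tried in this way, and the outcome is not given here. Intervals are 95% and Poisson intervals and floors cover counting error only.

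The 10 genes, the lists and the tests were chosen with earlier results of these data known. All 10 genes are described, other genes only where called, and the 3 genes of most similar profile for the 3 genes with the lowest p among the 4 groups.

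Same-numbered EV+ and EV- libraries deviated together from their group means (r = 0.203, 0.295 and 0.122 over genes), so they were treated as pairs in an added fit with a replicate block for these libraries. This pairing comes from the data and not from the labels. For control and GN, with 2 pairs, r was 0.0878.

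Another 18 rows carried dates in place of symbols and are not named. Promoter sequences were taken from RefSeq (GRCr8).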

Additional observations from a re-analysis of the deposited data

How the results depend on the processing

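No fold change of the 10 genes that was called reversed under the alternatives tried, which were a pseudocount of 0.1, RLE factors, a filter of 1 CPM in 2 libraries, no intensity trend, edgeR, DESeq2, the replicate block over all libraries, and, added after the data were seen, the replicate block for EV+ and EV- alone. The number of the 10 genes called moved as follows. DESeq2 called 5 among the 4 groups, 2 in GN against control, 1 in EV+ against GN and 1 in EV- against GN. The replicate block over all libraries called 1 in GN against control. The replicate block for EV+ and EV- called 3 in GN against control, 1 in EV+ against GN and 2 in EV- against GN. Without the intensity trend 2 were called in EV+ and 2 in EV- against control. Leaving out 1 library at a time gave 1 to 3 among the 4 groups, 0 to 1 in GN against control, 0 to 0 against GN and between EV+ and EV-, and 1 to 4 in EV+ and in EV- against control. The losses without an arm's library rest on fewer libraries; the cause of the others was not tested.

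Over all genes, limma called 231 among the 4 groups, 158 in GN, 327 in EV+ and 256 in EV- against control, 11 in EV+ and 34 in EV- against GN, and 2 between EV+ and EV-. In the same order, the counts were 93, 60, 186, 94, 0, 6 and 0 without the trend, 543, 294, 540, 474, 41, 113 and 34 with DESeq2, and 735, 392, 856, 689, 113, 172 and 34 with the replicate block for EV+ and EV-. The replicate block over all libraries gave 30 and 53 against GN and 5 between EV+ and EV-, where a pseudocount of 0.1 gave 4. Leaving out 1 library gave 97 to 266, 34 to 214, 114 to 390, 95 to 388, 0 to 18, 7 to 42 and 0 to 5.

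With 2 control libraries, the calls against control of *Pim3*, *Bcl2a1* and *Pmaip1* were lost without either one and that of *Mcl1* without replicate 1, while those of *Pim1* were made without either. *Bcl2* and *Pmaip1*, at 39 to 89 and 32 to 116 reads per library, are limited by counting.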
